A study of Mus musculus with 4 samples.

Results

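The Notch genes examined here are 9 of the 30828 genes counted in both libraries, taken by symbol. They are the receptors *Notch1*, *Notch2*, *Notch3* and *Notch4*, the ligands *Jag1* and *Jag2*, and the target genes *Hes1*, *Hey1* and *Heyl*. All 9 genes had reads in both libraries, and each is described across Sertoli, germ, myoid, stromal, endothelial and other cells of the P8 mouse testis.

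Testis cells were collected by flow cytometry with the surface markers CD9 and THY1, which enrich spermatogonia, and sequenced by 10x 3′ single-cell RNA sequencing. The *Cnot3*-cKO mice were *Cnot3* flox/flox with a *Ddx4*-creER transgene, whose Cre acts only after 4-hydroxytamoxifen (4-OHT) and only in germ cells. The controls, labelled wild-type, were *Cnot3* flox/flox littermates without Cre in the study's neonatal experiment, and both genotypes received 4-OHT from postnatal day 1. CNOT3 is a subunit of the CCR4-NOT complex, which shortens the poly(A) tails of mRNAs. Because Cre was limited to germ cells, the somatic cells of both genotypes kept their *Cnot3* alleles. Any difference in somatic cells is thus not one within the recombined cell. It is one between libraries, in which testis, cell preparation, sort and sequencing cannot be told apart. The labels list 4 samples, 2 per genotype, at postnatal day 8, but both samples of a genotype are merged in 1 matrix. The comparison is thus of 1 control library with 1 *Cnot3*-cKO library. No replicates, and hence no tests or p-values, stand behind it. All intervals below are exact 95% intervals for counting error alone, and the difference between animals is not in them.

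Notch receptors are membrane proteins that are cut when a ligand of the Jagged or Delta family on a neighbouring cell binds them. The freed intracellular part enters the nucleus and, with the DNA-binding protein RBPJ, turns on genes such as those of the HES and HEY repressors. In the testis, the pathway is known above all for Sertoli cells, which receive JAG1 signals from germ cells and then lower the niche factors GDNF and CYP26B1. In blood vessels, NOTCH1, NOTCH4 and DLL4 act in endothelium and NOTCH3 in the mural cells around it.

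The control library held 181550221 unique molecular identifiers (UMIs, each 1 captured RNA molecule) and the *Cnot3*-cKO library 168770743. After the filters of the study, 5615 and 6034 cells remained, with median depths of 14183 and 13215 UMIs. Of the called barcodes, 18 were shared by both libraries, where 11.5 would be shared if each were drawn from the kit's list. The classes, named from marker genes, held 1400 and 1723 Sertoli cells, 1213 and 1556 peritubular myoid cells, 1337 and 1308 stromal cells and 241 and 73 germ cells in control and *Cnot3*-cKO. They also held 327 and 222 cycling interstitial cells, 33 and 37 endothelial cells, 20 and 9 pericytes, and 50 and 61 macrophages. All class shares were set in part by the sort. *Cnot3* itself was counted at 69.4 UMIs per 1000000 UMIs (CPM) in control germ cells and 38.0 in *Cnot3*-cKO germ cells, and at 64.5 and 67.3 in Sertoli cells. Where these 3′ tags lie relative to the deleted part of *Cnot3* was not checked, so this is no direct measure of deletion.

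Each class was checked against its markers. All 7 germ markers were counted in the germ cells of both libraries, at 2510 and 2694 CPM in sum, and all 9 endothelial markers in the endothelial cells, at 4610 and 4962. In the pericytes all 6 pericyte markers and all 7 myoid markers were counted, and the macrophages held all 9 of theirs. The pericyte markers summed to 4804 and 3676 CPM in the pericytes and the myoid markers to 7714 and 8358. The pericyte class is thus not set apart by a low level of myoid markers. In the *Cnot3*-cKO pericytes the 8 Sertoli markers summed to 2116 CPM, with 1 at 0. Their sum was far lower in the control pericytes, with 5 at 0. The part of these lists in the pericyte levels was not tested. Stromal markers were high in the class called peritubular myoid as well, at 10049 and 10531 CPM for 7 markers against 3397 and 2743 for the 7 myoid markers. In stroma the myoid markers summed to 258 and 208 CPM and the stromal markers to 18870 and 18804. The myoid class is thus named for its myoid markers and is not set apart by a low level of stromal ones. Whether it holds stromal cells was not tested. The germ cells of *Cnot3*-cKO carried more Sertoli markers than those of control, 323 CPM against 107, with 1 of 8 markers at 0 in each.

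In the GRCm38 genome with the GENCODE M21 annotation, the members lie on 6 chromosomes. The UMIs are 3′ tags given per gene, so the spans below place the genes and need not be the stretches that were counted. *Notch1* covers chr2:26457903-26516663 on the minus strand, and *Notch2* chr3:98013527-98150361 on the plus strand. *Notch3* covers chr17:32120820-32166852 on the minus strand, and *Notch4* lies on the plus strand of the same chromosome at chr17:34564268-34588503. *Jag1* covers chr2:137081456-137116644 and *Jag2* chr12:112907819-112929776, both on the minus strand. *Hes1* covers chr16:30064384-30067796 on the plus strand, *Hey1* chr3:8663359-8667256 on the minus strand, and *Heyl* chr4:123233556-123249875 on the plus strand. On its own strand, *Notch1* overlaps *Mir6996*, *Jag2* overlaps *Mir6941*, and *Notch2* overlaps *Gm42819* and *Gm42820*, so reads in those stretches are uncertain. On the other strand, *Notch1* overlaps *0610009E02Rik* and *Gm13568*, *Notch3* overlaps *Gm17276* and *Notch4* overlaps *Gm20462*. How reads in the stretches shared with the other strand were assigned was not checked.

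RefSeq's table of start sites (GRCm38.p6) holds 6 of the members, *Notch1*, *Notch2*, *Notch3*, *Notch4*, *Jag1* and *Jag2*, and the 250 bases before each start were searched on both strands. The letters were TGGGAA, which RBPJ binds, CACGTG and CACGCG, which HES and HEY proteins bind, and CAGGAAG, an ETS site. Of 32851 windows of this length in the table, 21.6% hold TGGGAA, 6.02% CACGTG, 7.62% CACGCG and 10.8% CAGGAAG. None of the 6 windows holds TGGGAA or CACGTG. The 3 windows with any match are shown here because they are the places where a site for the pathway's own repressors, or for the ETS proteins that are common in endothelium, can be read. Capitals mark the match, on either strand, and only bases outside the annotated gene are printed. *Notch2* is shown at chr3:98013288-98013526 on the plus strand, *Notch4* at chr17:34564045-34564267 on the plus strand, and *Jag1* at chr2:137116645-137116770 on the minus strand.
Notch2: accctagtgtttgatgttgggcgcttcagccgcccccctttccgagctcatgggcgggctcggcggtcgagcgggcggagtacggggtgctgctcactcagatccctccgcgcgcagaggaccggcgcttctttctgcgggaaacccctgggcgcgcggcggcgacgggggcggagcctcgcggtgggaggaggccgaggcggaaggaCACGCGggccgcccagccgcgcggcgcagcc
Notch4: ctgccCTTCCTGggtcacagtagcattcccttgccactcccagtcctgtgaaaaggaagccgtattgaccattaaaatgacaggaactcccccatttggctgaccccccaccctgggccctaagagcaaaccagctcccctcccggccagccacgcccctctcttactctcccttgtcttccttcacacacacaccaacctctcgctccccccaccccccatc
Jag1: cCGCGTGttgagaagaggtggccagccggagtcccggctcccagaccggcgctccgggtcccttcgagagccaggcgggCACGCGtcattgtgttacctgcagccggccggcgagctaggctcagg
*Jag1* has 2 CACGCG matches, the farther starting 249 bases before the RefSeq start, *Notch2* has 1 at 42 bases, and *Notch4* has 1 ETS match at 245 bases. A match of letters is a description of the sequence and not a bound site.

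Receptors were divided between cell types. *Notch2*, a receptor found in many tissues, was counted most in Sertoli cells, at 90.0 CPM in control (1894 UMIs) and 79.2 in *Cnot3*-cKO (1954 UMIs). Stroma held 56.4 and 46.6 CPM, cycling interstitial cells 48.6 and 48.9, and peritubular myoid cells 47.8 and 39.8. Pericytes held 43.2 and 72.4 CPM on 11 and 9 UMIs, and in *Cnot3*-cKO their interval, 33.1 to 137, held the Sertoli level. Macrophages held 67.9 and 54.4 CPM on 62 and 58 UMIs, and in neither library did their interval separate them from stroma. Germ cells held 19.3 and 26.8 CPM. *Notch2* was lowest in endothelial cells, at 10.5 and 4.41 CPM from 5 and 2 UMIs. After every cell was thinned to 7500 UMIs, 42.1% of control Sertoli cells had a *Notch2* UMI (interval 39.5% to 44.8%) against 9.09% of control endothelial cells (1.92% to 24.3%), whose median depths were 13827 and 12158 UMIs before thinning.

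*Notch1*, the receptor needed for artery formation, was counted most in endothelial cells, at 126 CPM in control (60 UMIs) and 179 in *Cnot3*-cKO (81 UMIs). This was 8.77 and 11.1 times the level in all other named cells. Sertoli cells held 27.3 and 27.1 CPM on 575 and 669 UMIs, and stroma 13.7 and 16.6. Peritubular myoid cells were the lowest in both libraries, at 2.17 and 2.82 CPM, below every other class with at least 10 UMIs by intervals that did not overlap. Pericytes held 78.6 CPM in control from 20 UMIs and 16.1 in *Cnot3*-cKO from 2, and macrophages 16.4 and 44.1. With so few cells, the place of those last 2 classes in the order is not settled. Germ cells held 11.0 and 11.1 CPM and cycling interstitial cells 8.56 and 10.4.

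*Notch3*, the mural cell receptor, was the most restricted of the receptors. It was counted in all 20 control and all 9 *Cnot3*-cKO pericytes, also after thinning, at 425 CPM (interval 348 to 513) and 459 CPM (347 to 594). The level was 41.7 and 44.3 times that of all other named cells. Peritubular myoid cells held 18.6 and 18.0 CPM, stroma 15.7 and 14.9, and cycling interstitial cells 15.3 and 22.4. In control the intervals of these 3 classes overlapped. Germ cells had 2.54 and 1.31 CPM from 18 and 2 UMIs, and macrophages 1 and 0 UMIs. Sertoli cells had 0.190 and 0.122 CPM from 4 and 3 UMIs in 1400 and 1723 cells. Endothelial cells had 0 UMIs of *Notch3* in both libraries, which allows up to 6.32 CPM in control and 6.62 in *Cnot3*-cKO.

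*Notch4*, a receptor of endothelium, was counted in endothelial cells at 44.2 and 37.5 CPM from 21 and 17 UMIs, 25.4 and 22.7 times the rest. Germ cells held 3.81 and 7.20 CPM from 27 and 11 UMIs. Sertoli cells held 0.856 and 1.13 CPM, stroma 2.09 and 1.91, peritubular myoid cells 1.60 and 1.81, and cycling interstitial cells 1.201 and 1.417. Macrophages held 6.57 CPM from 6 UMIs in control and 0 UMIs in *Cnot3*-cKO, which allows up to 2.81 CPM. Pericytes had 0 UMIs in both libraries, which allows up to 11.8 and 24.1 CPM.

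**Figure D1:**
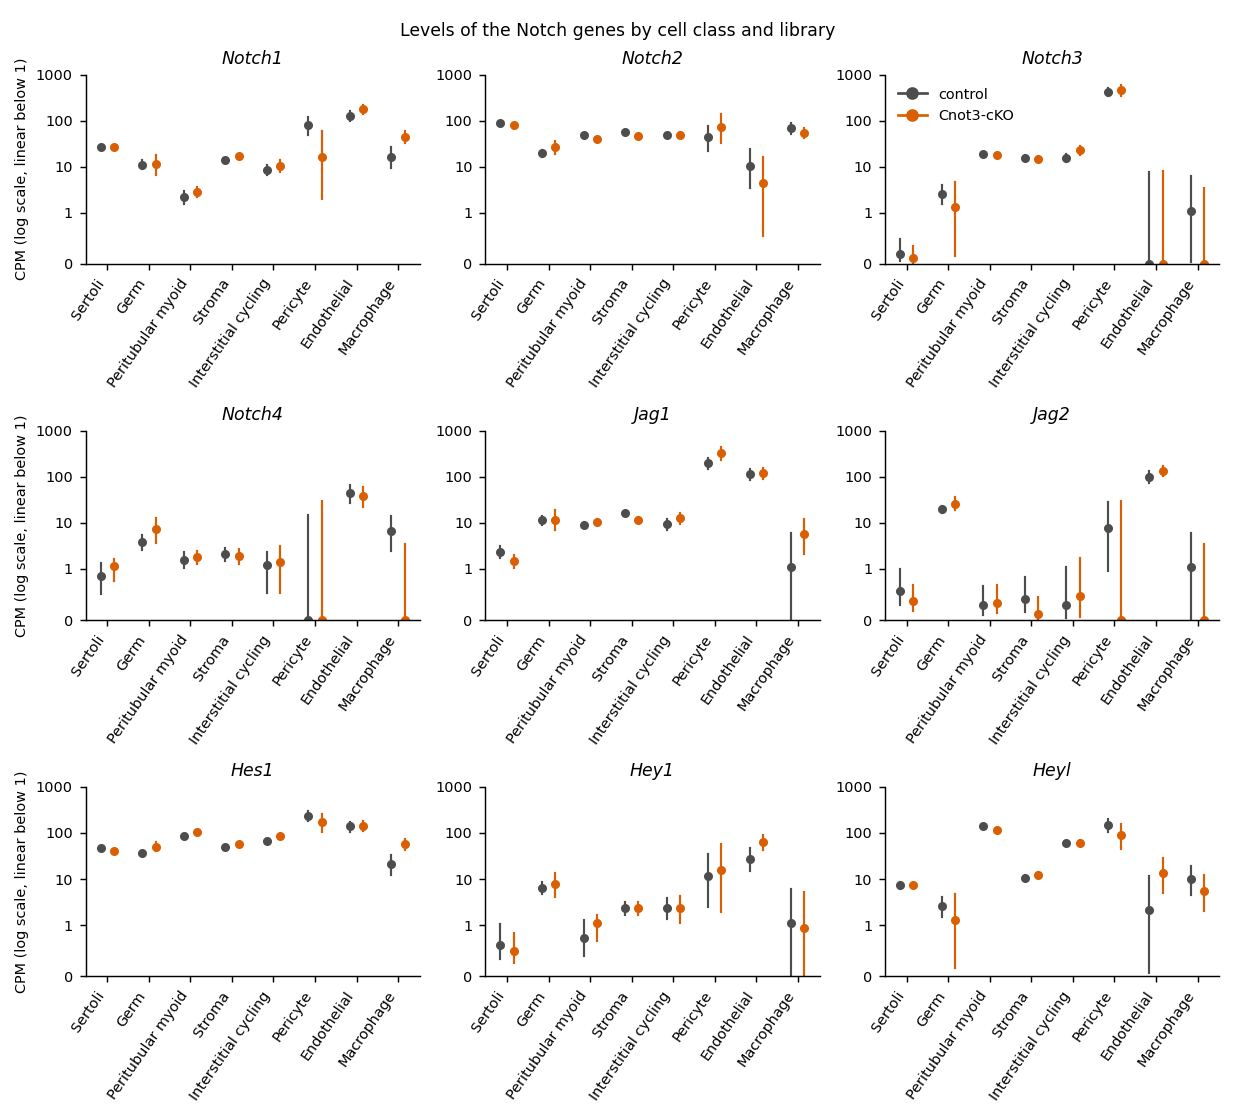
Level of each Notch gene in 8 cell classes, in CPM of that class and library (vertical axis, logarithmic above 1 and linear below), for control (grey) and Cnot3-cKO (orange); points are single libraries and bars are exact 95% Poisson intervals. Notch3 stands at 425 and 459 CPM in pericytes and at 0 in endothelial cells, and Jag2 is above 10 CPM only in endothelial and germ cells.

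Both ligands were counted most in vessel-associated cells, *Jag1* in pericytes and endothelium and *Jag2* in endothelium, and *Jag2* also in germ cells. *Jag1* was counted in pericytes at 197 CPM in control (50 UMIs) and 322 in *Cnot3*-cKO (40 UMIs), and in endothelial cells at 116 and 119. Pericytes were 20.4 and 38.9 times above the other named cells and endothelial cells 12.0 and 14.7 times. Stroma came next in control, at 16.2 CPM against 11.5 in *Cnot3*-cKO. Germ cells held 11.3 and 11.8 CPM, peritubular myoid cells 9.12 and 10.4, and cycling interstitial cells 9.31 and 12.8, with intervals that overlapped in each library. Sertoli cells were lower, at 2.33 and 1.46 CPM, and macrophages had 1 and 6 UMIs. In the pericytes, all 14 control cells and all 8 *Cnot3*-cKO cells with a *Jag1* UMI also had a *Notch3* UMI, as did every pericyte.

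*Jag2* was counted almost wholly in endothelial and germ cells. Endothelial cells held 101 CPM (48 UMIs) in control and 137 (62 UMIs) in *Cnot3*-cKO, and germ cells 19.6 (139 UMIs) and 26.2 (40 UMIs). The germ level was 16.3 and 21.5 times that of all other named cells, and the endothelial level 42.5 and 156 times. The cells other than endothelial held 2.38 CPM in control and 0.879 in *Cnot3*-cKO, with 241 and 73 germ cells among them. The 2 endothelial folds thus differ in what they are set against more than in the endothelial level. Sertoli, stromal, myoid and cycling interstitial cells lay between 0.127 and 0.570 CPM, and pericytes and macrophages had 2 and 1 UMIs in control and 0 in *Cnot3*-cKO. After thinning, 16.6% of control germ cells (interval 12.1% to 21.9%) and 12.3% of *Cnot3*-cKO germ cells (5.80% to 22.1%) had a *Jag2* UMI. In peritubular myoid cells the thinned share was 0.165% and 0.129%, at median depths of 14209 and 13218 UMIs against 31950 and 20265 in germ cells. Unthinned, the germ shares were 34.4% and 37.0%.

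The target genes followed different cells. *Heyl*, a HEY-family repressor of muscle and mural cells, was counted in peritubular myoid cells at 145 CPM in control (2543 UMIs) and 118 in *Cnot3*-cKO (2472 UMIs), 9.80 and 8.56 times the other named cells. Control pericytes stood at 145 CPM too, from 37 UMIs, and *Cnot3*-cKO pericytes at 88.5 from 11. Cycling interstitial cells held 59.4 and 60.9 CPM, stroma 10.4 and 12.5, and Sertoli cells 7.27 and 7.25. Germ cells had 2.54 and 1.31 CPM, macrophages 9.86 and 5.63 from 9 and 6 UMIs, and endothelial cells 2.11 and 13.2 from 1 and 6. After thinning, 59.1% of control myoid cells (interval 56.3% to 61.9%) and 47.9% of *Cnot3*-cKO myoid cells (45.4% to 50.4%) had a *Heyl* UMI, against 5.36% and 5.28% of Sertoli cells, whose median depths were 13827 and 13292 UMIs.

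*Hes1*, a repressor that Notch and other signals induce, was counted in every class. Pericytes held 236 and 169 CPM, endothelial cells 139 and 141, and peritubular myoid cells 84.4 (1481 UMIs) and 105 (2203 UMIs). Cycling interstitial cells held 68.0 and 87.9 CPM, stroma 49.1 and 57.5, Sertoli cells 47.2 and 40.4, and germ cells 36.1 and 50.4. In control, stroma and Sertoli cells were within each other's interval, while in *Cnot3*-cKO stroma was above. Macrophages held 20.8 and 56.3 CPM from 19 and 60 UMIs.

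*Hey1*, a HEY-family repressor known from arterial endothelium, had few UMIs. Endothelial cells held 27.4 CPM from 13 UMIs in control and 64.0 from 29 in *Cnot3*-cKO, 14.7 and 45.0 times the rest. Germ cells held 6.49 and 7.85 CPM from 46 and 12 UMIs, 4.20 and 4.63 times the rest. Sertoli cells held 0.618 and 0.486 CPM, stroma 2.33 and 2.35, cycling interstitial cells 2.40 and 2.36, and peritubular myoid cells 0.741 and 1.10, and macrophages had 1 UMI in each library. Pericytes had 3 and 2 UMIs of *Hey1*, so their place above 4-fold rests on 5 molecules.

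A gene was called higher in a class when its level was at least 4-fold that of all other named cells in both libraries, among 14067 genes with at least 100 UMIs over both. By this rule 5 of the 9 members were called in endothelial cells (*Notch1*, *Notch4*, *Jag1*, *Jag2* and *Hey1*), where 3.73% of all genes were called. In pericytes 3 of 9 were called (*Notch3*, *Jag1* and *Hey1*), where the share over all genes was 2.42%. In germ cells 2 of 9 were called (*Jag2* and *Hey1*) against 7.41% of all genes, and in peritubular myoid cells 1 of 9 (*Heyl*) against 1.89%. No member was called in Sertoli cells, where 6.09% of genes were, in stroma (2.55%), in cycling interstitial cells (1.37%) or in macrophages (5.08%). *Notch1* and *Notch2* in Sertoli cells fell short of the fold, at 2.72 and 2.34 times the rest for *Notch1* and 1.92 and 1.85 for *Notch2*. Some calls rested on how the cells were grouped. The pericytes merged with cycling interstitial cells when doublets were left out or the wider set below was used, which ended their calls, and *Heyl* in myoid cells fell under the fold at a clustering resolution of 1.0. With each cell classed by its own markers alone, *Heyl* was called in stroma and not in myoid cells. *Hey1* in germ cells, near the fold, was lost in 4 of the alternatives.

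Barcodes of at most 100 UMIs, which hold free RNA, carried all 9 genes at levels from 2.34 CPM (*Hey1*, *Cnot3*-cKO) to 76.9 CPM (*Notch2*, *Cnot3*-cKO). Free RNA was estimated at up to 4.31% of the UMIs of a class, which brings at most 3.31 CPM of any member. *Notch2* in endothelial cells, at 10.5 CPM with 2.48 CPM from this source in control, was the level most exposed to it among the classes with 5 or more UMIs.

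Between genotypes, none of the Notch genes changed by 2-fold in any class in which it could be followed. Ratios were read only where a gene had at least 100 UMIs over both libraries in the class, which left 30 pairs of a member and a class. Of these, 0 were past 2-fold in either direction and 0 past 1.5-fold. The shares of all genes past 2-fold were 0.289% in Sertoli cells (4 members read), 1.67% in germ cells (3 members) and 0.853% in peritubular myoid cells (5 members). They were 0.265% in stroma and 0.277% in cycling interstitial cells, with 6 members each. In the small classes they were 3.49% in pericytes (1 member), 2.76% in endothelial cells (4 members) and 3.6% in macrophages (1 member).

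Smaller differences were larger than counting error in some pairs. *Notch2* was lower in *Cnot3*-cKO in each of the 3 large somatic classes. On the log2 scale, *Cnot3*-cKO over control gave ratios of -0.19 in Sertoli cells (interval -0.28 to -0.09), -0.26 in peritubular myoid cells (-0.40 to -0.12) and -0.27 in stroma (-0.42 to -0.14). *Notch1* did not differ in Sertoli cells beyond counting error, at -0.01 (-0.17 to 0.15), and was higher in stroma by 0.28 (0.02 to 0.54). *Jag1* in stroma had a ratio of -0.49 (-0.77 to -0.21), from 278 and 181 UMIs. The ratio farthest from 0 among the 30 was that of *Notch3* in cycling interstitial cells, at 0.55 (0.13 to 0.97), from 102 and 95 UMIs.

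*Hes1* had a ratio of 0.32 (0.22 to 0.41) in peritubular myoid cells, 0.37 (0.17 to 0.57) in cycling interstitial cells, 0.23 (0.09 to 0.36) in stroma and 0.48 (0.09 to 0.85) in germ cells. In Sertoli cells its ratio had the other sign, -0.23 (-0.35 to -0.10). The germ stages, described below, differed in their shares of the germ cells between the libraries. The part of this in the germ ratio was not tested. *Heyl* was lower in *Cnot3*-cKO myoid cells, at -0.30 (-0.38 to -0.22), where the sum of the 7 myoid markers had a ratio of -0.31 and that of the 7 stromal markers 0.07. In Sertoli cells *Heyl* did not differ beyond counting error, at -0.004 (-0.32 to 0.32). *Hey1* in endothelial cells, at 13 and 29 UMIs, had a ratio of 1.23 (0.24 to 2.29) but was under 100 UMIs and is a value only. In those endothelial cells a list of 8 cell-cycle genes was at 246 CPM in control against 704 in *Cnot3*-cKO. The 7 stromal markers summed to 634 and 2632 CPM there, with 2 and 0 of them at 0, and the 8 Sertoli markers to 1419 and 121, with 0 and 2 at 0. The part of these lists in the endothelial values was not tested.

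Several of these ratios rested on where the myoid class was drawn. At a clustering resolution of 1.0 the myoid class kept 937 control and 600 *Cnot3*-cKO cells, beside a mixed interstitial class of 460 and 1076, so the genotypes were spread unevenly over the parts of the class. The *Hes1* ratio of the smaller myoid class was -0.51 (-0.67 to -0.35), of opposite sign to that of the whole class. With each cell classed by its own markers, which left 146 and 140 myoid cells, it was -0.43 (-0.75 to -0.12). *Heyl* was lower in *Cnot3*-cKO under both, at -0.49 (-0.61 to -0.37) and -0.81 (-1.13 to -0.50), and *Notch2* in the cells classed by markers had 0.17 (-0.23 to 0.56). In the wider set, *Jag1* in stroma was at -0.15 (-0.34 to 0.03) and *Hes1* in cycling interstitial cells at 0.06 (-0.15 to 0.27), so those 2 differences were no longer beyond counting error.

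**Figure D2:**
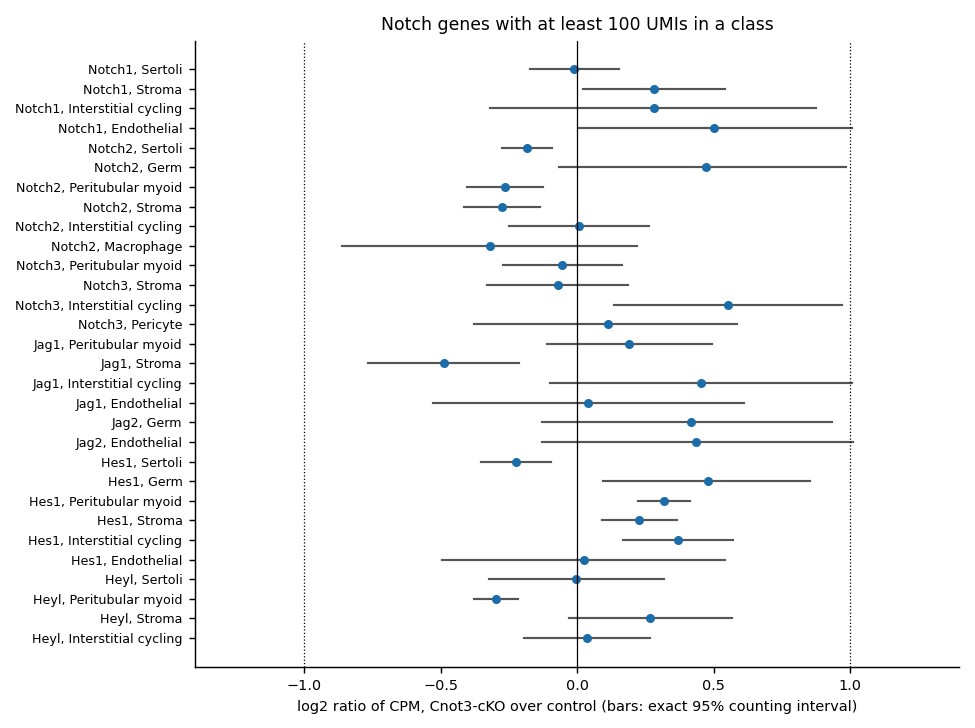
Log2 ratio of CPM, Cnot3-cKO over control (horizontal axis), for the 30 pairs of a Notch gene and a class with at least 100 UMIs; points are the ratio of 1 library to 1 library, bars exact 95% counting intervals, dotted lines 2-fold. No point reaches a dotted line, and Hes1 lies right of 0 in myoid, stromal, cycling interstitial and germ cells and left of 0 in Sertoli cells; in the smaller myoid class of a clustering resolution of 1.0 it was -0.51.

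Immediate-early genes, which rise within minutes of stress or dissociation, were higher in *Cnot3*-cKO in every named class. The summed level of 10 such genes, *Fos*, *Jun* and *Egr1* among them, was 1675 CPM in control against 4049 in *Cnot3*-cKO in peritubular myoid cells, and 881 and 2115 in stroma. In Sertoli cells it was 2294 and 2676, a log2 ratio of 0.22 against 1.27 in myoid cells. The ratio was 1.71 in macrophages, 1.41 in cycling interstitial cells, 1.26 in stroma and 1.19 in pericytes. It was 0.98 in germ cells and 0.36 in endothelial cells. The part of these genes in the Notch values of those classes was not tested. *Hes1* was read again within 4 bins of the myoid cells, of equal size when ranked over both libraries by their immediate-early level, a split chosen after seeing the data. In the lowest bin, of 437 control and 255 *Cnot3*-cKO cells, *Hes1* was at 62.5 and 48.8 CPM, a log2 ratio of -0.36 (-0.64 to -0.08). In the next it was 87.5 and 63.9, a ratio of -0.45 (-0.68 to -0.23), and in the third 99.4 and 84.6, a ratio of -0.23 (-0.42 to -0.04). In the highest bin, of 51 and 642 cells, it was 146 and 155, a ratio of 0.09 (-0.19 to 0.39), and the mean immediate-early level itself still differed there, at 5040 and 6854 CPM. In the lower 3 bins *Cnot3*-cKO was below control, and in the highest the interval held 0.

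*Heyl* in the same myoid bins had ratios of -0.52, -0.47, -0.26 and 0.07, so that its lower level in *Cnot3*-cKO was found in the lower 3 bins and not in the highest. In stroma the *Hes1* ratios were 0.06, -0.05, 0.23 and 0.09, all with intervals that hold 0, where the class as a whole had 0.23. In Sertoli cells they were -0.56, -0.39 and -0.38 in the lower 3 bins and 0.35 (0.07 to 0.63) in the highest. *Notch2* in the myoid bins had ratios of -0.24, -0.25, -0.27 and -0.43, all below 0, although each interval on its own held 0. The part of the immediate-early genes in these ratios was not tested.

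**Figure D3:**
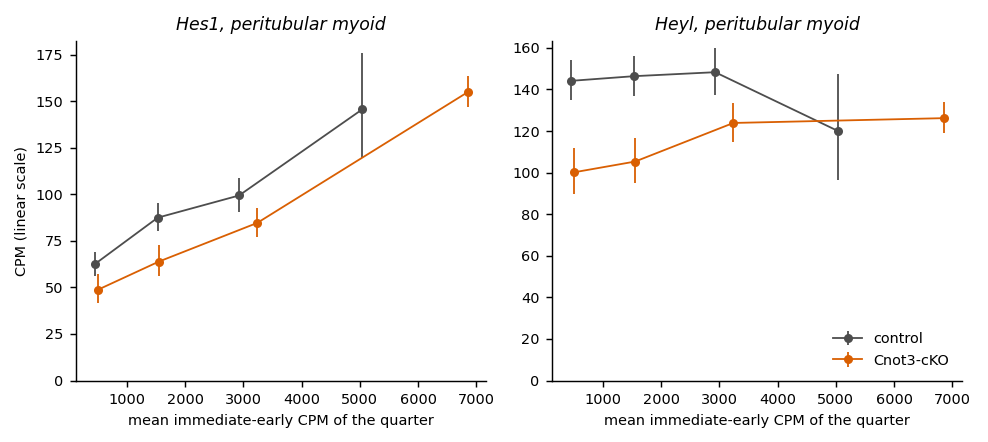
Level of Hes1 and Heyl in CPM (vertical axis, linear) in peritubular myoid cells, split into 4 bins by their summed immediate-early level (horizontal axis, the mean of each bin in CPM), for control (grey) and Cnot3-cKO (orange) with exact 95% Poisson intervals. Hes1 goes from 62.5 CPM in the lowest to 146 CPM in the highest bin of control, and Cnot3-cKO lies below control in the lower 3 bins for both genes.

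The peritubular myoid class joins a large cluster of 1204 and 1461 cells and a small one of 9 and 95 cells led by *Ramp1* and *Adam33*. In the small cluster *Heyl* was at 158 CPM in the 9 control cells and 26.7 in the 95 *Cnot3*-cKO cells, and *Hes1* at 34.3 and 9.21, from 23 and 29 and from 5 and 10 UMIs. Without it, the myoid ratio was 0.38 (0.28 to 0.48) for *Hes1* and -0.24 (-0.32 to -0.15) for *Heyl*.

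Sertoli cells formed 4 clusters, which differed in *Notch1* and *Hes1*. The *Cidea*-led cluster of 271 and 327 cells held the most *Notch1*, at 47.9 and 45.6 CPM, and the least *Hes1*, at 20.6 and 28.8 CPM. The *Hsd17b1*-led cluster of 792 and 1048 cells held 16.9 and 21.3 CPM of *Notch1* and 48.9 and 37.8 of *Hes1*. The cell-cycle-led cluster of 199 and 200 cells held 34.7 and 25.2 CPM of *Notch1* and 62.3 and 54.9 of *Hes1*, and the *Hist1h2bc*-led cluster 29.45 and 29.98 of *Notch1* and 59.4 and 57.9 of *Hes1*. With the *Cidea*-led cluster left out, a choice made after seeing the data, *Notch1* and *Hes1* had the same order in each library. The cell-cycle-led and *Hist1h2bc*-led clusters were close in *Hes1* and changed places between the libraries. *Notch2* lay between 72.9 and 97.1 CPM in all 4 clusters and both libraries. *Heyl* was between 4.14 and 8.50 CPM. The Notch genes were left out of the genes used for clustering, so these levels did not define the clusters. For *Hes1* the *Cidea*-led cluster had a ratio of 0.48 (0.07 to 0.90) and the *Hsd17b1*-led cluster -0.37 (-0.55 to -0.20).

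**Figure D4:**
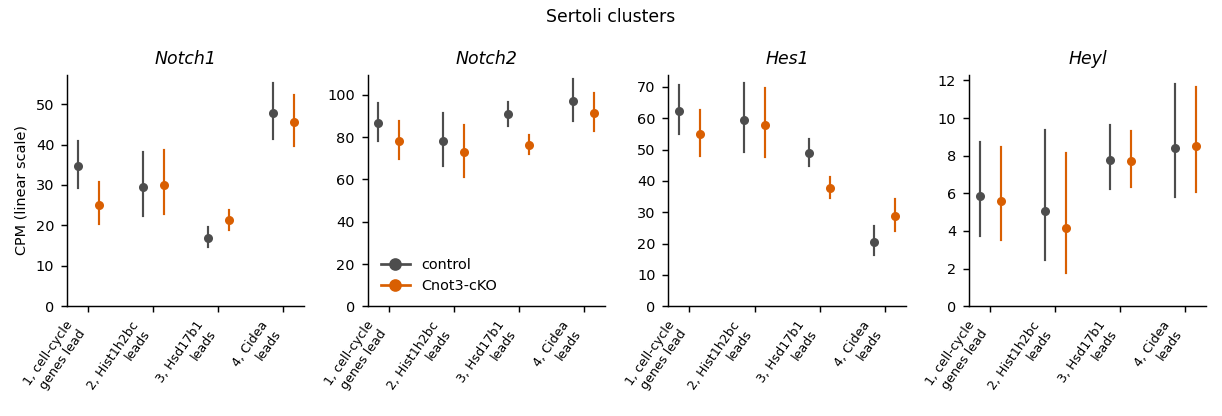
Levels of Notch1, Notch2, Hes1 and Heyl in the 4 Sertoli clusters, in CPM (vertical axis, linear), for control (grey) and Cnot3-cKO (orange) with exact 95% Poisson intervals. Notch1 is highest, at 47.9 and 45.6 CPM, in the Cidea-led cluster, where Hes1 is lowest, at 20.6 and 28.8 CPM.

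Within single Sertoli cells, *Notch1* and *Notch2* were often counted together. Of 1400 control Sertoli cells, 403 had a *Notch1* UMI, 894 a *Notch2* UMI and 261 both. Of 1723 *Cnot3*-cKO cells these were 501, 1066 and 327. Deeper cells have more of every gene, so these counts describe the cells and are not a test of association.

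The filters of the study left few germ cells, so the stages were read from a wider set, with up to 20% mitochondrial UMIs and no upper bound, which held 1333 control and 559 *Cnot3*-cKO germ cells. Both limits were changed at once, and their separate shares in the gain were not tested. It held 315 and 302 cells of the spermatogonial stem cell (SSC) stage, 220 and 10 progenitor, 452 and 96 differentiating and 133 and 56 meiotic-stage cells. The other 213 and 95 cells were led by somatic genes and left out of the stages. In the SSC stage 7 members had at least 100 UMIs over both libraries, and *Notch3* and *Heyl*, with 14 and 18, did not.

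*Jag2* followed the germ stages. In control it was at 5.59 CPM in SSCs (68 UMIs), 7.90 in progenitors, 18.6 in differentiating cells and 44.9 in the meiotic stage (187 UMIs). In *Cnot3*-cKO it was at 14.2 CPM in SSCs (199 UMIs), 22.0 in differentiating cells and 40.3 in the meiotic stage, and at 11.4 in progenitors from 6 UMIs. After thinning, 4.44% of control SSCs (interval 2.45% to 7.34%) and 30.1% of control meiotic-stage cells (22.4% to 38.6%) had a *Jag2* UMI, at median depths of 39088 and 30288 UMIs. In the set with the study's filters, the control order was the same, with 2.86, 23.6 and 55.5 CPM in SSCs, differentiating and meiotic-stage cells.

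*Hes1* was lowest in the meiotic stage in both libraries, without a steady course over the earlier stages. In control it was at 43.1 CPM in SSCs (525 UMIs), 53.5 in progenitors, 39.8 in differentiating cells and 6.24 in the meiotic stage (26 UMIs). In *Cnot3*-cKO it was at 57.0, 37.9, 47.2 and 14.1 CPM. In both libraries the meiotic stage was below the SSC and differentiating stages by intervals that did not overlap. *Hey1* was at 4.35 CPM in control SSCs and at 10.8, 9.36 and 10.6 in the later stages. *Notch2* in control was even, at 20.7, 18.7, 15.4 and 15.1 CPM, and *Notch1* was at 13.1, 3.34 and 6.12 in the first 3 stages. *Jag1* was at 8.54, 6.28, 8.67 and 13.9 CPM. *Notch4* in SSCs was at 4.27 and 5.93 CPM, and *Notch3* and *Heyl* were under 1 CPM there in both libraries.

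**Figure D5:**
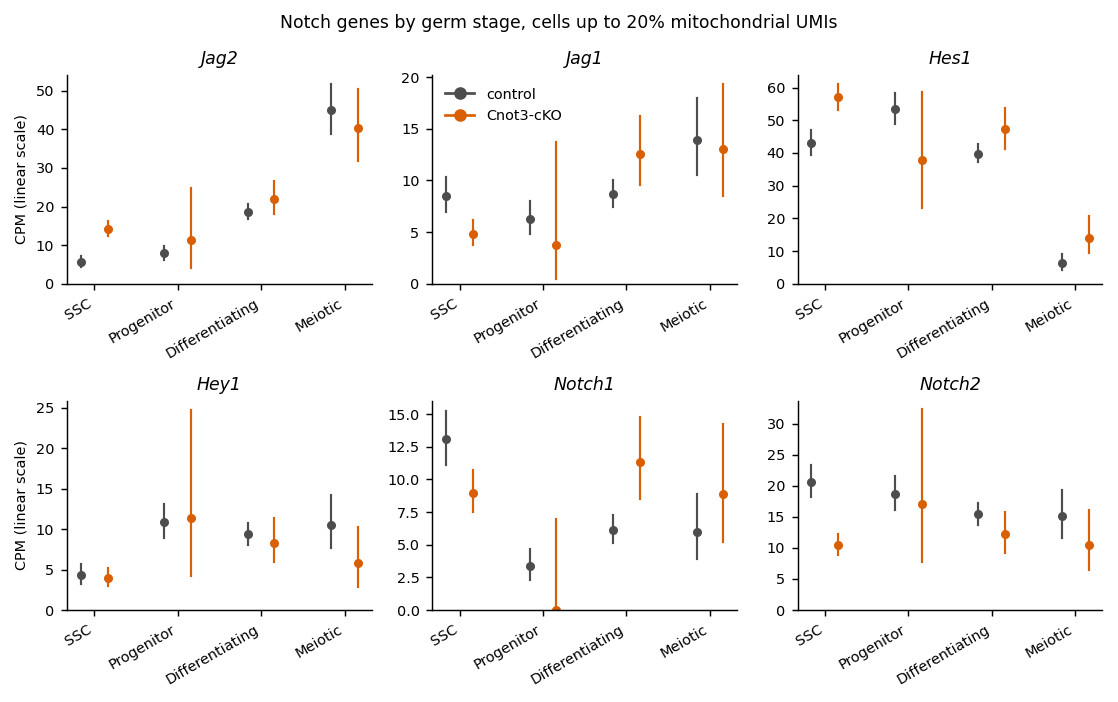
Levels of 6 Notch genes in 4 germ stages of the wider set, in CPM (vertical axis, linear), for control (grey) and Cnot3-cKO (orange) with exact 95% Poisson intervals. Jag2 goes from 5.59 CPM in control SSCs to 44.9 in the meiotic stage. Hes1, at 43.1 CPM in control SSCs, is lowest in the meiotic stage, at 6.24, without a steady course in between.

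Between genotypes, *Jag2* in SSCs was the single stage value past 2-fold with at least 100 UMIs. Its log2 ratio was 1.35 (0.94 to 1.77). In the SSC stage of the wider set, 7 members could be read and 1 was past 2-fold, where 3.23% of all genes were. For the germ cells of the wider set as a whole, 9 members could be read and 0 were past 2-fold, against 2.47% of all genes. In differentiating cells 0 of 7 members were past it (0.982% of genes), in the meiotic stage 0 of 1 (0.211%) and in progenitors 0 of 3 (6.76%), where *Cnot3*-cKO had 10 cells. With the study's filters, the SSC stage of 65 and 31 cells let 1 member, *Hes1*, be read, at a ratio of 0.20 (-0.27 to 0.65), where 2.16% of genes were past 2-fold. *Jag2* there was at 2.86 and 12.2 CPM, from 6 and 9 UMIs.

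The SSC stage joins 2 clusters that are split by genotype. A cluster led by *Hmgn5* and *Rragd* held 267 control and 21 *Cnot3*-cKO cells, and a cluster led by *Nefm*, *Id4* and *Lhx1* held 48 and 281. In the first of these, *Jag2* was at 5.35 and 1.23 CPM from 54 and 1 UMIs, a ratio of -2.13 (-7.46 to 0.41). In the second it was at 6.725 and 15.01 CPM from 14 and 198 UMIs, a ratio of 1.16 (0.38 to 2.06). Of the 302 *Cnot3*-cKO SSCs, 281 came from the second cluster. The share of SSCs with a *Jag2* UMI after thinning was 6.29% in *Cnot3*-cKO (3.83% to 9.65%), an interval that overlapped that of control.

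The other members in SSCs had ratios of -0.99 (-1.29 to -0.69) for *Notch2*, -0.82 (-1.28 to -0.36) for *Jag1*, -0.54 (-0.89 to -0.19) for *Notch1* and 0.40 (0.24 to 0.56) for *Hes1*. *Notch2* was lower in *Cnot3*-cKO in both clusters, with ratios of -0.67 (-1.69 to 0.20) and -0.76 (-1.30 to -0.18). *Notch1* was at 9.32 and 11.0 CPM in the *Hmgn5*-led cluster and at 31.2 and 8.87 in the *Nefm*-led cluster, a ratio there of -1.82 (-2.27 to -1.36) from 65 and 117 UMIs. *Hes1* had ratios of 0.53 (0.04 to 0.99) and -0.40 (-0.65 to -0.14) in these clusters, of opposite sign. Sertoli markers in the SSC stage were at 47.5 CPM in control against 81.2 in *Cnot3*-cKO, and stromal markers at 133 in both. The 9 meiotic markers summed to 621 CPM in control SSCs and 887 in *Cnot3*-cKO SSCs, and the 8 cell-cycle genes to 1571 and 2258, with none of either list's genes at 0. The part of these lists in the ratios, that of *Jag2* included, was not tested. In differentiating cells *Notch1* was higher in *Cnot3*-cKO, with a ratio of 0.89 (0.40 to 1.36) from 125 and 53 UMIs, and *Jag1* had 0.54 (0.09 to 0.97).

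Other genes of the pathway were taken from lists of 52 genes that cover other ligands, ligand and receptor processing, nuclear partners, attenuators and other Hes and Hey genes. With the study's filters, 0 of 193 pairs of a pathway gene and a class with at least 100 UMIs were past 2-fold between genotypes. The median log2 ratio of the pathway genes read was 0.04 in Sertoli cells (38 genes), 0.03 in peritubular myoid cells (39 genes) and 0.02 in stroma (38 genes), where all genes had medians of 0.04, -0.006 and -0.02. In germ cells it was -0.12 over 26 genes, against 0.03 for all genes. In the SSC stage of the wider set 2 of 35 were past 2-fold, both upward, beside the 3.23% of all genes given above. These were *Neurl1a*, a ubiquitin ligase for Notch ligands, with a ratio of 1.21 (0.62 to 1.84), and *Dtx3*, a Deltex-family gene, with 1.24 (0.73 to 1.76). In progenitors, where *Cnot3*-cKO had 10 cells, 3 of 27 were past it downward, beside 6.76% of all genes. These were *Hdac1*, a histone deacetylase, at -1.24 (-1.92 to -0.64), *Adam17*, a protease, at -1.15 (-2.79 to 0.09) and *Numb*, which restrains Notch, at -1.02 (-2.48 to 0.12), and the last 2 had 5 and 6 UMIs in *Cnot3*-cKO. *Adam10*, a protease that cuts Notch receptors, had -1.51 (-3.81 to 0.07) in differentiating cells under the study's filters, on 107 and 3 UMIs. It was 1 of 16 pathway genes read in that stage, beside 4.30% of all genes past 2-fold. The stage held 78 control and 10 *Cnot3*-cKO cells, with median depths of 33536 and 17074 UMIs.

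*Dll4*, the Delta ligand of endothelium, was counted at 116 CPM in control endothelial cells and 130 in *Cnot3*-cKO endothelial cells, from 55 and 59 UMIs. This was 909 and 1481 times its level in all other named cells, with lower bounds of 446 and 642. *Dll4* had 129 UMIs over all named cells of both libraries, most of them endothelial. The levels outside endothelium, 0.127 and 0.0879 CPM, thus rest on few molecules, and so does the size of these folds. After thinning, 51.5% and 45.9% of endothelial cells had a *Dll4* UMI, and 0.0714% and 0.0580% of Sertoli cells. *Dll1* had 1 and 5 UMIs in endothelial cells. *Rbpj*, the DNA-binding partner of the receptors, was counted in all classes. It was at 53.5 and 54.9 CPM in Sertoli cells, 53.8 and 43.2 in germ cells, 30.2 and 33.6 in peritubular myoid cells and 35.9 and 38.9 in stroma.

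*Gdnf* and *Cyp26b1*, niche genes that Notch signalling in Sertoli cells is known to lower, were read beside the members. *Gdnf*, the growth factor of SSCs, was at 25.6 CPM in Sertoli cells of control against 32.3 in those of *Cnot3*-cKO, a log2 ratio of 0.34 (0.18 to 0.50), and at 26.2 and 28.3 in peritubular myoid cells. *Cyp26b1*, which breaks down retinoic acid, was at 14.9 and 16.1 CPM in Sertoli cells, a ratio of 0.11 (-0.10 to 0.33). It was far higher outside Sertoli cells, at 114 and 141 CPM in peritubular myoid cells and 118 and 137 in stroma. Within the 4 immediate-early bins of Sertoli cells the *Gdnf* ratio was 0.44, 0.52, 0.02 and 0.36, beside -0.56, -0.39, -0.38 and 0.35 for *Hes1*. The signs were opposite in the lowest bin and the next. In the third the *Gdnf* interval held 0 (-0.30 to 0.34), and in the highest both ratios were above 0. The bins were chosen after seeing the data, and a link between the levels of these genes was not tested.

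The genes most like each member were found by the Pearson correlation of log2(CPM + 1) over 20 points, 10 classes and germ stages in 2 libraries, among 9918 genes. For *Heyl* these were the contractile genes *Myl9* (0.94) and *Tagln* (0.94), and for *Notch3* *Steap4* (0.93) and *Hspb2* (0.92). For *Jag1* they were *Mfge8* (0.93) and *Tm4sf1* (0.89), for *Hes1* *Dstn* (0.92) and *Vangl2* (0.92), and for *Notch2* *Smim1* (0.96) and *Slc16a3* (0.87). For *Notch1* they were *Cd9* (0.87), whose protein was used in the sort, and *Ssbp4* (0.85). The points share libraries and depth, so these values are descriptions. *Notch4*, *Jag2* and *Hey1* had under 1000 UMIs in the named cells and were not read.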

How the data were processed

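Testis cells of control and *Cnot3*-cKO mice were sequenced by 10x 3′ single-cell RNA sequencing. The authors deposited raw UMI counts per gene and barcode, 1 matrix per genotype, made with Cell Ranger 3.0.1 on mm10 per the submitters' processing notes. Each matrix merges 2 labelled samples, so the groups have 1 library each and no test was run.

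Barcodes were called as cells by Cell Ranger's order-of-magnitude rule for 3000 expected cells, at thresholds of 7977 UMIs in control and 7664 in *Cnot3*-cKO. Cells with over 10% mitochondrial UMIs, or outside the mean ± 2 SD of UMIs or genes, were removed after the study's filter, and the kept cells outnumber those the study states. Doublets called by Scrublet (499 of 8341 and 454 of 9336 barcodes) stayed in, and leaving them out was an alternative. Counts were clustered (2500 variable genes, 30 principal components, 15 neighbours, Leiden resolution 0.5) without the Notch genes, the other pathway genes and mitochondrial genes, and clusters were named from marker lists. How markers were scored was settled after the data were seen. The 994 control and 1045 *Cnot3*-cKO cells in clusters with markers of several classes stayed unnamed. Classes rebuilt this way may differ from those of the study.

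UMIs were summed per class and library and scaled to 1000000 UMIs (CPM). Exact 95% intervals were taken from the Poisson distribution for levels and from the conditional binomial for ratios. A gene at 0 was given the limit of 3 counts. Shares of cells were read after thinning to 7500 UMIs, with Clopper-Pearson intervals, and shallower cells were left out. Molecules of 1 library are not independent animals, so intervals cover counting error only. The calculations used Python 3.11.15, numpy 2.4.6, scipy 1.17.1 and scanpy 1.11.5, and the ratio step was tested on simulated data. The Notch genes, the pathway and marker lists and the folds were chosen with earlier results of these data known. All 9 Notch genes are named in each class, and other pathway genes by count, and by name where they were past 2-fold on at least 100 UMIs or were *Dll1*, *Dll4*, *Rbpj*, *Gdnf* or *Cyp26b1*. Alternatives were other cell filters, cell calling, clustering, class naming, subtraction of free RNA, per-cell means, other folds and other UMI minimums.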

Additional observations from a re-analysis of the deposited data

Results flagged for a closer look

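*Hes1* had ratios of opposite sign between classes. On the log2 scale, *Cnot3*-cKO over control gave 0.48 in germ cells, 0.37 in cycling interstitial cells, 0.32 in peritubular myoid cells and 0.23 in stroma, and -0.23 in Sertoli cells, and none of these 5 counting intervals held 0. With 1 library per genotype, the difference between classes was not tested. In myoid cells the sign was not stable, with -0.51 (-0.67 to -0.35) at a clustering resolution of 1.0 and -0.43 (-0.75 to -0.12) with cells classed by their own markers. Immediate-early genes were higher in *Cnot3*-cKO in every named class. Their log2 ratio was 0.98 in germ cells, 1.27 in myoid cells and 0.22 in Sertoli cells. Within 4 bins of their level the *Hes1* ratio in myoid cells was -0.36, -0.45, -0.23 and 0.09.

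*Notch2* stood higher in a small unnamed cluster, which no comparison above uses, than in any named class. The cluster, led by *Rmst*, *Pax8* and *Kdr*, held 10 control and 11 *Cnot3*-cKO cells. *Notch2* was at 174 CPM there in control (interval 117 to 251) and 169 in *Cnot3*-cKO (113 to 243), from 29 UMIs in each library. In the same cells *Notch1* was at 90.2 and 87.6 CPM and *Hes1* at 223 and 164.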

How the results depend on the processing

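The count of 0 Notch genes past 2-fold between genotypes was also 0 under every alternative but 1. With a minimum of 20 UMIs it was 4 of 55 pairs, *Notch1* in pericytes, *Hey1* in endothelial cells, and *Notch1* and *Hes1* in macrophages, on fewer molecules by construction. The share of all genes past 2-fold at that minimum was not computed, so whether 4 of 55 exceeds it is not known. At the higher minimum used for the ratios above, that share was 3.49% in pericytes, 2.76% in endothelial cells and 3.6% in macrophages. In macrophages the 5 T cell markers summed to 684 CPM in control and 31.9 in *Cnot3*-cKO. There the 8 cell-cycle genes summed to 774 and 333 CPM, and the 10 immediate-early genes to 1518 and 4976. The part of these lists in the macrophage ratios was not tested. For the other pathway genes the count of 0 became 1 of 222 pairs in the wider set, *Dlk1* in endothelial cells, at 124 and 44.9 CPM (log2 ratio -1.47), and the cause was not tested. The share of all genes past 2-fold in the endothelial cells of the wider set was not computed. Under the study's filters it was 2.76%. The 11 calls of a Notch gene in a class ranged from 8 to 15 over the alternatives. *Jag2* in SSCs of the wider set, at 1.35, was -2.13 in the *Hmgn5*-led cluster alone, a split chosen after seeing the data, but on 54 and 1 UMIs with an interval of -7.46 to 0.41, which holds 0. *Hes1* in myoid cells, at 0.32, was -0.51 at a clustering resolution of 1.0 and -0.43 with cells classed by their own markers, and *Notch2* there went from -0.26 to 0.17 in the latter. Fewer cells enter both, and the cause was not tested. Of the 30 ratios, the wider set moved 3 of 29 beyond their counting interval and the marker gate 6 of 24. Of the 60 levels, free RNA subtraction moved 0, the wider set 21 of 58, and classing cells by their own markers 20 of 48. Without thinning, 51 of 60 shares moved. No paired analysis was possible because both samples of a genotype are merged in 1 matrix, and for the same reason no replicate could be left out.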

Other observations

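The largest unnamed cluster, of 775 control and 799 *Cnot3*-cKO cells led by *Foxl2*, *Oxtr* and *Cyp26b1*, also held Notch genes. *Notch2* was at 44.8 CPM in its control cells against 30.9 in those of *Cnot3*-cKO, with a ratio of -0.54 on the log2 scale (-0.73 to -0.35) from 567 and 382 UMIs. This was farther from 0 than its ratio in any of the 3 large somatic classes, and the difference was not tested. *Hes1* was at 64.9 and 73.6 CPM (0.18, 0.04 to 0.32), *Jag1* at 18.7 and 21.0 and *Heyl* at 30.4 and 26.4. Scrublet called 24.5% and 26.1% of the unnamed cells doublets, and the part of doublets in these levels was not tested.

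In stroma, the *Heyl* ratio ran upward over 4 bins of cells ranked by their immediate-early level, a split chosen after seeing the data. It was -0.83, -0.57 and -0.13 in the lower 3 bins, with counting intervals that held 0. In the highest bin *Heyl* was at 8.21 CPM in the 162 control cells and 18.4 in the 500 *Cnot3*-cKO cells, from 17 and 115 UMIs, and the ratio there was 1.17, with 0.43 as the lower bound of its interval.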
